A study of Mus musculus with 29 samples.

Results

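The genes described here are 5 that encode proteins secreted by the oocyte, Gdf9, Bmp15, Bmp6, Fgf8 and Oosp1, and Kit, which encodes the receptor through which the oocyte receives a signal from its follicle. They were taken by name, 6 of the 49997 genes in the count table, and all 6 passed the filter on low counts that left 21768 genes for testing. Levels were followed in 29 mouse libraries made by Smart-seq2, a method that amplifies full-length poly(A) RNA, each from a tube of 10 cells. The CKO females were Dhx36 fl/fl with Zp3-Cre and the WT females Dhx36 fl/fl without Cre, so every group carried the floxed allele. Zp3-Cre acts in oocytes that have begun to grow. Growing oocytes came from 2-week-old females (GO 2W, 3 CKO and 3 WT libraries), and fully grown oocytes from 3-week-old (FGO 3W, 2 CKO and 2 WT) and 4-week-old females (FGO 4W, 3 CKO and 3 WT). Metaphase II oocytes (MII 3W, 4 CKO and 3 WT) and zygotes (zygote 3W, 3 CKO and 3 WT) came from 3-week-old females. For zygotes the genotype is that of the mother.

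A mammalian oocyte and the somatic granulosa cells around it depend on each other. The oocyte secretes GDF9 and BMP15, ligands of the TGF-beta family that act through serine-threonine kinase receptors and SMAD proteins in granulosa and cumulus cells, and these cells return KIT ligand, which binds KIT on the oocyte and signals through PI3K and AKT. Dhx36 encodes a helicase that unwinds G-quadruplexes, folded structures formed by runs of guanine in DNA and RNA, and the study asked how its loss bears on oocyte and early embryo development.

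Libraries held between 17697507 and 49104313 counts. Whole-gene Dhx36 counts were not lower in the libraries labelled CKO, with log2 changes of 0.12 in growing oocytes, 0.40 and 0.31 in fully grown oocytes of 3 and 4 weeks, 1.79 at MII and 0.44 in zygotes, of which the change at MII was called (edgeR adjusted p = 0.00197), as was the mean of the 5 stages (0.61, 0.0149). CKO MII libraries held 3226, 660, 1478 and 338 CPM of Dhx36, against 397 to 429 CPM in WT, so the fourth lay below every WT library. A count over the whole gene does not show whether the floxed part is gone, so genotypes are given as labelled. None of 12 oocyte markers was at 0 in any library. Their sums did not overlap before maturation, at 18688 to 19562 CPM in CKO and 20215 to 24320 CPM in WT at GO 2W, 14020 to 14717 CPM in CKO and 16252 to 19145 CPM in WT at FGO 3W, and 10202 to 12266 CPM in CKO and 18564 to 19910 CPM in WT at FGO 4W. They overlapped later, at 7669 to 12260 CPM in CKO and 9814 to 10049 CPM in WT at MII, and 6274 to 9717 CPM in CKO and 7523 to 8803 CPM in WT in zygotes. Gaps like those before maturation were common among single genes. Growing oocytes had them in 44% of all tested genes. Fully grown oocytes of 3 and 4 weeks had them in 69% and 46.7%. Of the 12 oocyte markers, 7 were called lower in CKO at FGO 4W (14.8% of all tested genes were) and 1 higher. The part of this in the changes of the 6 genes was not tested. The 22 granulosa and cumulus markers summed to 85.5 to 115 CPM in CKO and 53.2 to 75.3 CPM in WT at GO 2W, and to 106 to 107 CPM in CKO and 63.7 to 65.6 CPM in WT at FGO 3W. They summed to 63.7 to 84.8 CPM in CKO and 53.2 to 60.2 CPM in WT at FGO 4W, to 95.8 to 160 CPM in CKO and 144 to 156 CPM in WT at MII, and to 75.6 to 159 CPM in CKO and 56.6 to 63.0 CPM in WT in zygotes. Of these markers Cyp19a1 alone gave 27.1 to 140 CPM, while Foxl2 and Amh never passed 0.600 CPM and Ptx3 was at 0 in all 29 libraries. Kitl, the gene of KIT ligand, was at 4.35 to 17.5 CPM, and Fshr and Inha reached 32.1 and 13.1 CPM. Libraries 2 and 3 of CKO MII and library 1 of CKO zygotes stood apart in holding 8.43%, 21.9% and 27.3% of their counts on the ribosomal RNA gene Rn18s-rs5, against 1.61% to 6.81% in the others.

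Levels below are CPM, read counts relative to a library size scaled by TMM. A change is the log2 ratio of CKO to WT, given with its SE. A gene is called when the adjusted p of edgeR's quasi-likelihood test, fitted over all libraries and adjusted over all tested genes, is under 0.05. Where genes are compared with each other, the authors' FPKM are used, which divide by gene length. The count table holds no spike-in genes, so a level is relative to the other genes of its library and not an amount per cell. TMM factors ran from 0.703 to 1.30, so these CPM differ from shares of the library total. In growing oocytes the factors were 1.22 to 1.27 in CKO and 1.10 to 1.12 in WT. The gap between the oocyte marker sums of growing oocytes thus depends on this scaling. Those sums were not taken on library totals. In pooled cells fewer transcripts per cell and fewer cells contributing RNA cannot be told apart. Smart-seq2 takes in RNA that carries poly(A), so a change in transcript number cannot be told apart from a change in polyadenylation. No label says that the tubes came from separate animals.

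Of the 6 genes, 2 were called at GO 2W (13.7% of all tested genes were called there), 2 at FGO 3W (17.8%), 4 at FGO 4W (26.6%), 2 at MII 3W (32.9%) and 2 in zygotes (27%). All of these calls were lower in CKO except Fgf8 at MII. Over all tested genes the share called lower was 6.38% in growing oocytes, 9.62% and 14.8% in fully grown oocytes of 3 and 4 weeks, 14.7% at MII and 12.5% in zygotes, and 18.2% were called higher at MII. Averaged over the 5 stages with equal weight, Bmp15, Oosp1 and Kit were called, all lower in CKO, where 23.6% of all tested genes were called lower and 47.9% were called in either direction. The median change over all tested genes lay between -0.05 and 0.13 on the log2 scale at the 5 stages. With libraries scaled by their totals it was 0.15 in growing oocytes, 0.20 and 0.18 in fully grown oocytes of 3 and 4 weeks, 0.32 at MII and -0.02 in zygotes.

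**Figure D1:**
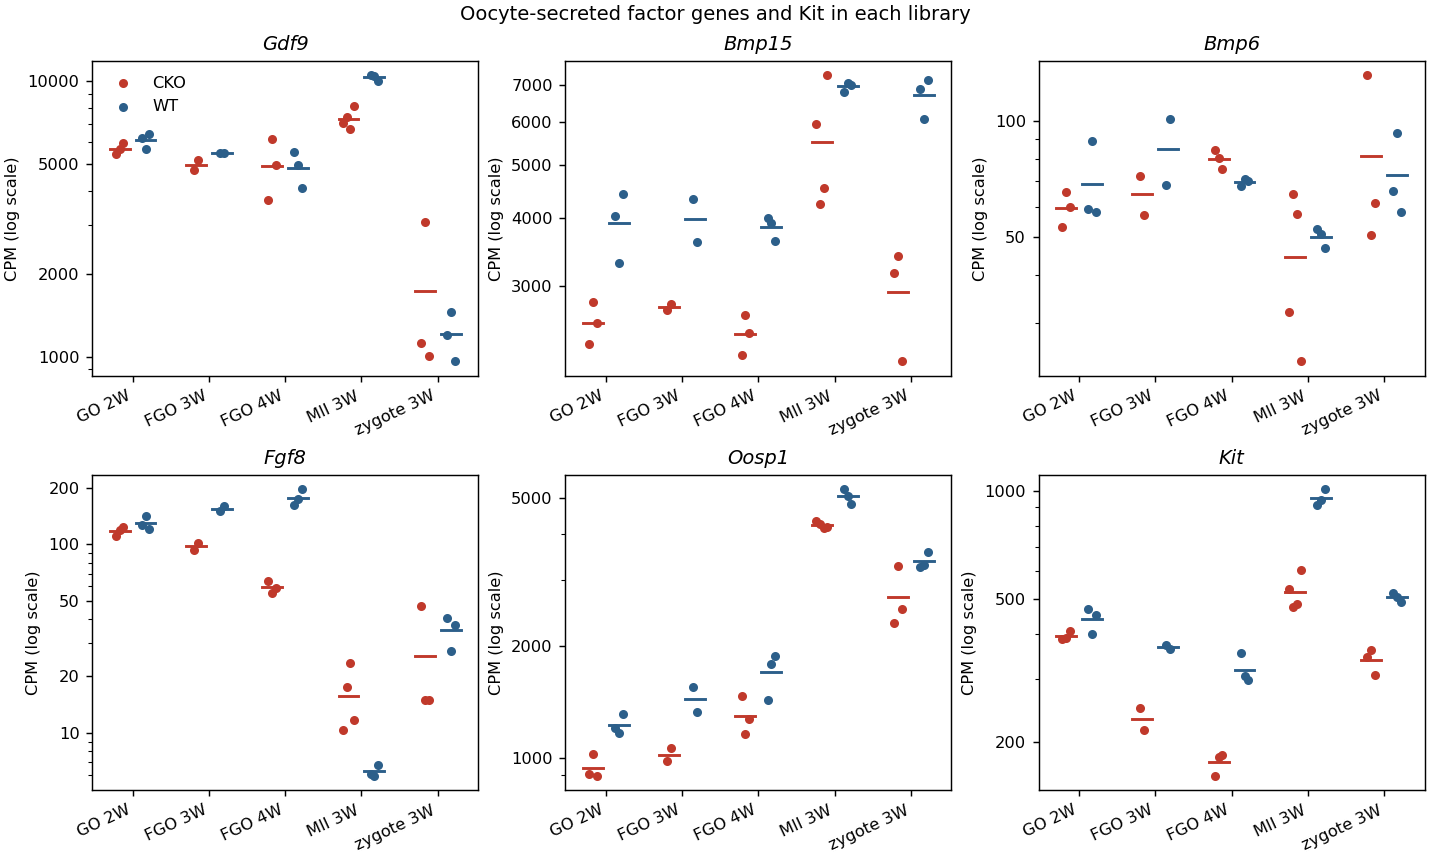
Level of each gene in every library, in CPM on a log axis, by stage, with CKO in red left of WT in blue; each point is a library and each bar the group mean. Bmp15 and Kit lie lower in CKO at most stages, Gdf9 drops in zygotes of both genotypes, and Fgf8 is lower in CKO at FGO 4W and higher at MII.

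Gdf9 encodes the TGF-beta family ligand that mouse follicles need to grow past the primary stage. It lies on chromosome 11 at 53431023 to 53437904 (plus strand, GENCODE M21 on GRCm38, the build also called mm10) and its longest coding transcript has 2 exons. In FPKM it ranked between 3 and 16 among all genes in each oocyte group, and at 62 in CKO zygotes and 92 in WT zygotes. GO 2W libraries held 5426, 5650 and 5969 CPM in CKO, against 6185, 5685 and 6417 CPM in WT. FGO 3W libraries held 4755 and 5178 CPM in CKO and 5499 and 5481 CPM in WT, and FGO 4W libraries 3704, 6149 and 4952 CPM in CKO and 5504, 4952 and 4094 CPM in WT. The genotypes overlapped at GO 2W and FGO 4W, and Gdf9 was called in neither growing nor fully grown oocytes, the prophase stages, with changes of -0.10 (SE 0.25, edgeR adjusted p = 0.851), -0.14 (SE 0.31, 0.804) and 0.03 (SE 0.25, 0.961).

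At MII the Gdf9 level was 7020, 7412, 6684 and 8120 CPM in CKO, against 10478, 10402 and 10005 CPM in WT. Each CKO library lay below each WT library, and ranges did not meet in 37.5% of all tested genes at MII. The change of -0.49 (SE 0.23) was not called in the fit of all libraries (edgeR adjusted p = 0.110). A fit of the MII libraries alone gave -0.55 and called it (edgeR adjusted p = 0.00851). It was also called with no filter on low counts (-0.46, edgeR adjusted p = 0.00281). With libraries scaled by their totals it was not called (-0.29, edgeR adjusted p = 0.407). In zygotes Gdf9 was at 1120, 3072 and 1006 CPM in CKO and 1202, 1457 and 960 CPM in WT. The second CKO zygote library stood above the other 5, and the change of 0.52 (SE 0.25, edgeR adjusted p = 0.129) turned to -0.19 without it. Without CKO zygote library 1 or library 3 it was called, at 0.67 and 0.74, as it was with no filter on low counts (0.46, edgeR adjusted p = 0.00845).

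Gdf9 was lower in zygotes than in MII oocytes in both genotypes, with changes of -2.08 in CKO (SE 0.25, edgeR adjusted p = 6.40e-07) and -3.09 in WT (SE 0.27, 7.32e-10). The difference between these changes was 1.02 (SE 0.35, edgeR adjusted p = 0.0438). It was no longer called in 10 of the 13 fits that left out a library, and stood at 0.29 without the second CKO zygote library. Nor was it called with libraries scaled by their totals (0.71, edgeR adjusted p = 0.213) or in any limma fit (0.52, adjusted p of 0.375 to 0.612). As fitted ratios, zygotes stood at 0.237-fold of the MII level in CKO and 0.117-fold in WT.

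Bmp15, on the X chromosome, encodes the partner of GDF9, with which it forms heterodimers that act on cumulus cells. Its gene spans 6314107 to 6320721 (minus strand) in 2 exons. RefSeq's window of 250 bases before the start (GRCm38.p6, chrX:6320725-6320974, minus strand) is shown because Bmp15 had the largest mean change of the 5 ligands. It holds the letters TAATTA at 225 to 220 bases before the start, in capitals, the core bound by homeodomain proteins such as the oocyte factor NOBOX.
Bmp15: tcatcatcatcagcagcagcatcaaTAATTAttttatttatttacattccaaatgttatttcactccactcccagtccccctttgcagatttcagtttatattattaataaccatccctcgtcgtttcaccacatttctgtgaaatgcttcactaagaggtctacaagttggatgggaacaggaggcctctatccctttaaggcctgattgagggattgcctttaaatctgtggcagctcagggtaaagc
The motif TAATTA, on either strand, stood in 4.9% of the 27025 genes' windows of this length, and TAATTG, the other form searched, in 7.34% but not in this one. No G-quadruplex motif, here 4 runs of 3 or more G with loops of 1 to 7 bases on either strand, was found in this window.

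Bmp15 was called lower in CKO in growing oocytes, in fully grown oocytes of 4-week-old females and in zygotes. GO 2W libraries held 2343, 2794 and 2560 CPM in CKO, against 4029, 3296 and 4410 CPM in WT, a change of -0.61 (SE 0.17, edgeR adjusted p = 0.0149). FGO 3W libraries held 2705 and 2780 CPM in CKO, against 4334 and 3601 CPM in WT. The ranges did not meet, but the change of -0.53 (SE 0.21) was not called (edgeR adjusted p = 0.0751). At FGO 4W, Bmp15 stood at 2241, 2652 and 2450 CPM in CKO and 3986, 3914 and 3623 CPM in WT, again without overlap, and the change of -0.65 was called (SE 0.17, edgeR adjusted p = 0.00499). With libraries scaled by their totals neither of these calls held, at -0.44 for GO 2W and -0.46 for FGO 4W, and the GO 2W call was also lost in 4 of the 6 fits that left out a library. Ranges that did not meet were common: 44% of all tested genes had them in growing oocytes, 69% and 46.7% in fully grown oocytes of 3 and 4 weeks, 37.5% at MII and 30.3% in zygotes.

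At MII the Bmp15 libraries of CKO held 5932, 4241, 4525 and 7294 CPM, against 6799, 7077 and 7014 CPM in WT. The genotypes overlapped there and the change of -0.34 (SE 0.16) was not called (edgeR adjusted p = 0.0978). The lower pair of CKO libraries was the pair rich in ribosomal RNA, and without the libraries rich in ribosomal RNA the change was -0.07. Without the fourth CKO library, the highest, it was called at -0.47 (edgeR adjusted p = 0.0122). The part of the ribosomal share in this was not tested. Zygotes gave the largest Bmp15 change of the 5 stages. CKO zygotes held 3166, 3404 and 2177 CPM, against 6874, 6077 and 7165 CPM in WT zygotes. Every CKO value was below every WT value, and the change was -1.20 (SE 0.17, edgeR adjusted p = 6.01e-06), ranging from -1.34 to -1.06 when single libraries were left out.

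The mean Bmp15 change over the 5 stages was -0.67 (SE 0.08, edgeR adjusted p = 5.84e-08). The zygote change minus the MII change was -0.86 (SE 0.23, edgeR adjusted p = 0.0108), while the test over all 5 stages gave an adjusted p of 0.0511. Within CKO, Bmp15 fell in zygotes relative to MII oocytes, with a change of -0.92 (SE 0.16, edgeR adjusted p = 1.05e-04). In WT it was near the MII level, at -0.05 (95% interval -0.40 to 0.29).

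The ratio of Bmp15 to Gdf9 within a library does not depend on how libraries are scaled. At GO 2W the FPKM ratio was 0.337, 0.386 and 0.335 in CKO, against 0.509, 0.453 and 0.537 in WT. It averaged 0.432 ± 0.0177 in CKO and 0.564 ± 0.0721 in WT at FGO 3W (SD, n = 2 each) and 0.398 ± 0.0683 in CKO and 0.624 ± 0.0633 in WT at FGO 4W (SD, n = 3 each). CKO libraries lay below WT libraries at all 3 of these stages without overlap. This ratio was not tested. Single genes had CPM ranges that did not meet in 44% (GO 2W), 69% (FGO 3W), 46.7% (FGO 4W) and 30.3% (zygotes) of all tested genes. MII ratios overlapped, with CKO between 0.447 and 0.701 and WT between 0.507 and 0.547. Zygotes had ratios of 2.21, 0.865 and 1.69 in CKO, against 4.47, 3.26 and 5.83 in WT. Both genotypes thus held more Bmp15 than Gdf9 per length in zygotes, except the second CKO library, the one with the high Gdf9.

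**Figure D2:**
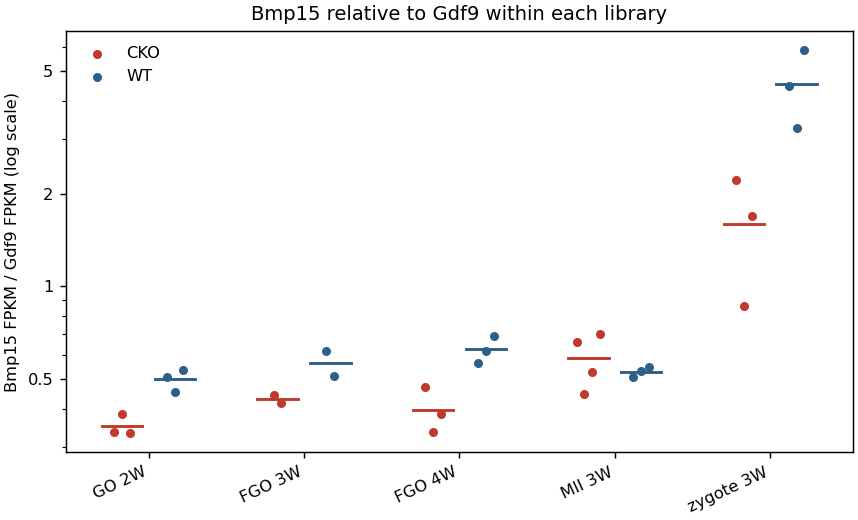
Ratio of Bmp15 FPKM to Gdf9 FPKM within each library on a log axis, by stage, with CKO in red left of WT in blue; points are libraries and bars group means. CKO libraries lie below WT libraries at every stage but MII, and zygotes lie above the oocyte stages, with CKO between 0.865 and 2.21 and WT between 3.26 and 5.83. The ratio was not tested.

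Bmp6 encodes a further ligand of the family, made by oocytes and by granulosa cells. The gene lies on chromosome 13 at 38345107 to 38500302 (plus strand) and overlaps 2 genes on the other strand, the antisense gene 4930579J19Rik over 7657 bases and Txndc5 over 224 bases. The strand setting of the counting is not given in the sources used here, so reads of these genes may be mixed. Bmp6 was far lower than Gdf9 per length, at group means between 11.9 and 32.9 FPKM. It was the only gene of the 6 whose longest coding transcript holds a G-quadruplex motif on its sense strand, at bases 795 to 821 in the 5′ UTR, shown in capitals because the study is about a G-quadruplex helicase; 17.7% of 21877 genes had such a motif.
Bmp6: GGGCCCCGCGGGGGCAGCCGGGCTGGG
Like Gdf9, Bmp6 had no genotype call at any stage.

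In prophase no Bmp6 change between the genotypes was called. GO 2W libraries held 53.0 to 65.7 CPM in CKO and 58.0 to 88.8 CPM in WT, and FGO 3W libraries 57.0 and 72.2 CPM in CKO and 68.3 and 101 CPM in WT. The ranges overlapped at both stages, with changes of -0.20 (95% interval -0.82 to 0.42) and -0.39 (95% interval -1.15 to 0.37). FGO 4W libraries of CKO, at 75.1 to 84.2 CPM, lay above those of WT, at 67.7 to 71.0 CPM. Ranges did not meet in 46.7% of all tested genes there. The change of 0.20 (SE 0.30) was not called (edgeR adjusted p = 0.678), while a fit of this stage alone called it (0.27, edgeR adjusted p = 0.0486). The mean change over the stages was -0.08 (95% interval -0.37 to 0.21, edgeR adjusted p = 0.686).

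After prophase, the highest Bmp6 values of CKO lay in the libraries rich in ribosomal RNA. CKO MII libraries held 31.9, 64.6, 57.4 and 23.8 CPM, of which the middle pair are the libraries rich in ribosomal RNA, against 52.6, 51.1 and 46.9 CPM in WT. CKO zygotes held 131, 50.6 and 61.4 CPM, the highest in the library rich in ribosomal RNA, against 65.9, 93.0 and 58.3 CPM in WT zygotes. With all libraries neither change was called, at -0.18 and 0.16. Without the libraries rich in ribosomal RNA the MII change was -0.84 (edgeR adjusted p = 0.0046) and the zygote change -0.44 (0.117), and the mean over the stages was then called, at -0.30 (0.00775). The part of the ribosomal share was not tested. Bmp6 was higher in CKO zygotes than in CKO MII oocytes, by 0.87 (SE 0.28, edgeR adjusted p = 0.0262), but stood at 0.28 and was not called without the first CKO zygote library (edgeR adjusted p = 0.513), and was 0.97 without all 3 libraries rich in ribosomal RNA (0.00412).

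**Figure D3:**
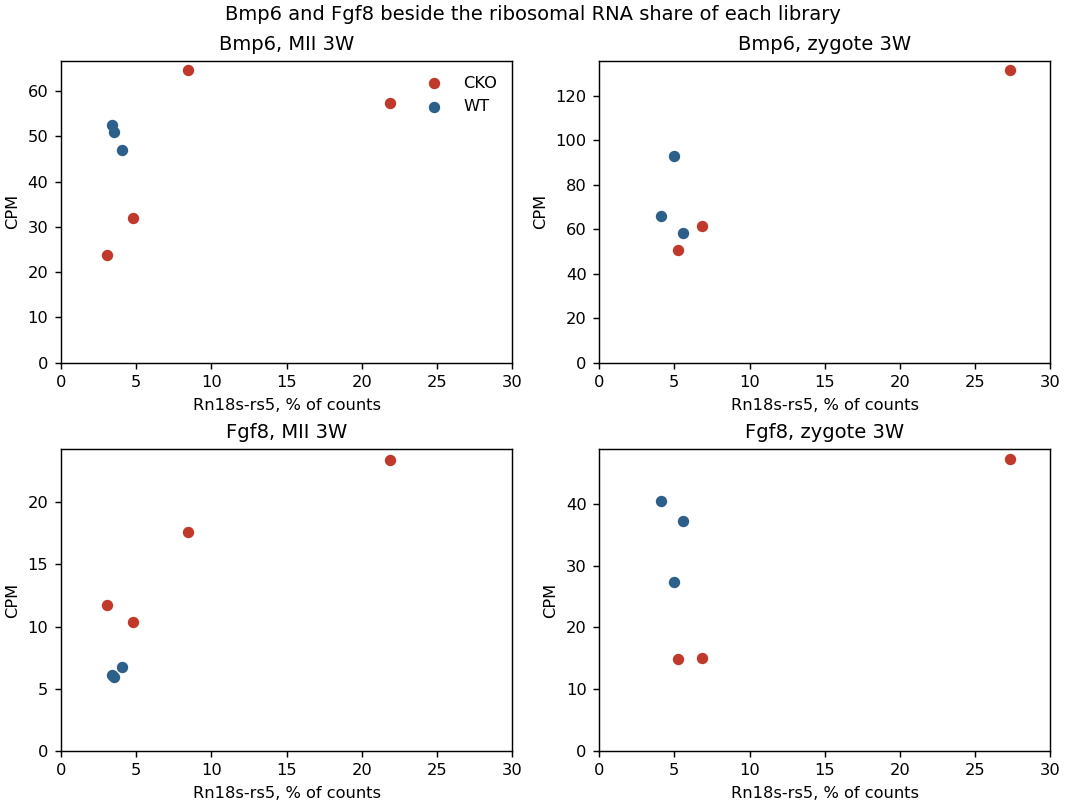
Bmp6 and Fgf8 levels in CPM against the percentage of counts on Rn18s-rs5, for MII oocytes and zygotes, with CKO in red and WT in blue and 1 point per library. The libraries with the highest ribosomal share, at 8.43%, 21.9% and 27.3%, hold the highest Bmp6 and Fgf8 among CKO libraries of their stage.

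Fgf8 encodes a fibroblast growth factor that, together with BMP15, promotes glycolysis in mouse cumulus cells. It lies on chromosome 19 at 45736798 to 45742915 (minus strand). At the growing stage the genotypes overlapped, at 110, 119 and 123 CPM in CKO and 127, 141 and 120 CPM in WT, a change of -0.14 (95% interval -0.74 to 0.46). FGO 3W libraries held 93.8 and 101 CPM in CKO and 150 and 159 CPM in WT. The values did not overlap, and ranges did not meet in 69% of all tested genes there. The change of -0.66 (SE 0.36) was not called (edgeR adjusted p = 0.217), while a fit of this stage alone called it (-0.56, edgeR adjusted p = 0.0157). At FGO 4W the gap was wider, with 64.0, 55.1 and 59.1 CPM in CKO, against 161, 173 and 195 CPM in WT. That change was -1.57 (SE 0.30, edgeR adjusted p = 2.60e-04), 0.336-fold of WT.

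At MII the Fgf8 level was low in both genotypes and the order was turned round. CKO MII libraries held 10.4, 17.6, 23.4 and 11.7 CPM, against 6.10, 5.96 and 6.74 CPM in WT, the smallest count being 135 reads. All CKO values were above all WT values, a change of 1.33 (SE 0.30, edgeR adjusted p = 8.88e-04) or 2.51-fold. Ranges did not meet in 37.5% of all tested genes at MII. The higher pair of CKO libraries are those rich in ribosomal RNA, and without them the change was 0.82 (edgeR adjusted p = 1.22e-04). In zygotes CKO libraries held 47.3, 14.9 and 15.0 CPM, the highest in the library rich in ribosomal RNA, against 40.6, 27.3 and 37.3 CPM in WT zygotes. With that library the ranges overlapped and the change of -0.45 (SE 0.30) was not called (edgeR adjusted p = 0.277). Without the libraries rich in ribosomal RNA it was -1.30 (edgeR adjusted p = 1.88e-07). The mean over the stages, -0.30 and not called with all libraries (edgeR adjusted p = 0.0745), was then -0.54 (6.69e-08). The part of the ribosomal share in these changes was not tested.

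The Fgf8 changes differed among the stages (edgeR F test over the 5 stages, adjusted p = 1.43e-04). The MII change exceeded the FGO 3W change by 1.99 (SE 0.46, edgeR adjusted p = 0.00411), and the zygote change minus the MII change was -1.78 (SE 0.42, 0.00372). The FGO 4W change minus the GO 2W change was -1.44 (SE 0.42, edgeR adjusted p = 0.0392), a call lost in each of the 12 fits that left out a library, where the adjusted p was 0.0562 to 0.0845. Fgf8 was lower after maturation in both genotypes, with MII against FGO 3W at -2.63 in CKO (SE 0.30, edgeR adjusted p = 2.68e-08) and -4.62 in WT (SE 0.36, 1.35e-11). Zygotes against MII stood at 0.70 in CKO, not called (SE 0.28, edgeR adjusted p = 0.0704), and 2.48 in WT (SE 0.32, 4.19e-07).

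**Figure D4:**
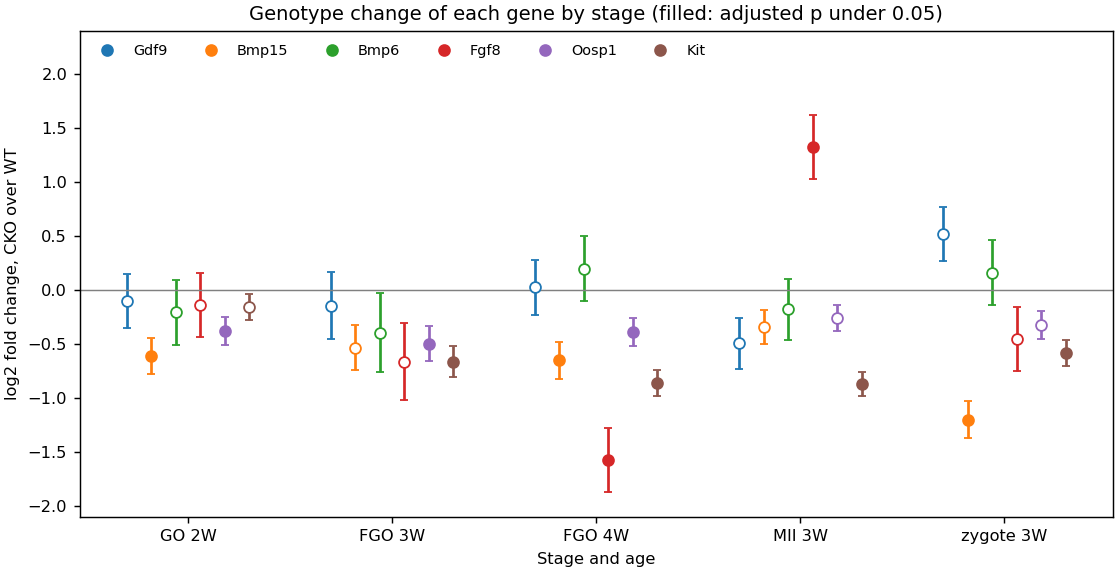
Log2 change of CKO over WT for each gene at each stage, with bars of 1 SE and filled points where the edgeR adjusted p was under 0.05. Kit is lower at the 4 stages after GO 2W, Bmp15 is lowest in zygotes at -1.20, and Fgf8 is at -1.57 at FGO 4W and 1.33 at MII.

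Oosp1 encodes oocyte-secreted protein 1. It lies on chromosome 19 at 11667460 to 11691150 (minus strand) and has 5 exons. Its sequence before the start is shown to set it beside that of Bmp15, since both genes were lower in CKO in the mean over stages. RefSeq's window (GRCm38.p6, minus strand) holds the E-box letters CANNTG, bound by basic helix-loop-helix proteins, at 5 places. The 151 bases that precede the gene in GENCODE (chr19:11691151-11691301) hold the first 2, in capitals.
Oosp1: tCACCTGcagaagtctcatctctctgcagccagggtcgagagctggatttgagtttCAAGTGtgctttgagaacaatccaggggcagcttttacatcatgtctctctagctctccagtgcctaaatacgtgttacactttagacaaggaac
CANNTG, which reads alike on both strands, stood in 66.0% of the 27025 windows, the Bmp15 window included. The Oosp1 window held neither TAATTA nor TAATTG nor a G-quadruplex motif.

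Oosp1 was modestly lower in CKO before maturation. GO 2W libraries held 904, 1023 and 895 CPM in CKO, against 1198, 1165 and 1313 CPM in WT, a change of -0.38 (SE 0.13, edgeR adjusted p = 0.0497). FGO 3W libraries held 981 and 1058 CPM in CKO, against 1552 and 1324 CPM in WT, a change of -0.50 (SE 0.16, edgeR adjusted p = 0.0302). The genotypes did not overlap at these stages, where ranges did not meet in 44% (GO 2W) and 69% (FGO 3W) of all tested genes. FGO 4W libraries held 1460, 1158 and 1273 CPM in CKO, against 1429, 1785 and 1881 CPM in WT, where 1 CKO library reached into the WT range, a change of -0.39 (SE 0.13, edgeR adjusted p = 0.0271). Each of these 3 calls was lost with libraries scaled by their totals, at -0.21, -0.23 and -0.20, and in most fits that left out a library. They were also lost with no filter on low counts (edgeR adjusted p = 0.177, 0.165 and 0.106). Each limma fit lost them too, but limma used FPKM, which also divide by library totals. The FGO 4W call was lost with RLE size factors as well (-0.33, edgeR adjusted p = 0.0520).

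MII oocytes held 4333, 4243, 4140 and 4178 CPM of Oosp1 in CKO, against 5259, 5059 and 4817 CPM in WT, a change of -0.26 that was not called (SE 0.12, edgeR adjusted p = 0.108). Zygotes held 2301, 3281 and 2514 CPM in CKO and 3254, 3303 and 3575 CPM in WT, also not called (-0.32, SE 0.13, edgeR adjusted p = 0.0652). The CKO range was below the WT range at MII, where 37.5% of all tested genes had ranges that did not meet. In zygotes 1 CKO library reached into the WT range. The mean change over the stages was -0.37 (SE 0.06, edgeR adjusted p = 1.03e-05), and the test among stages gave an adjusted p of 0.862. The calls of the mean for Bmp15, Oosp1 and Kit held in each alternative tried.

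Kit encodes the receptor tyrosine kinase of the oocyte membrane. It lies on chromosome 5 at 75574916 to 75656722 (plus strand) and has 21 exons. Its sequence before the start is shown because, of the 4 genes with a RefSeq window here (Bmp15, Bmp6, Oosp1 and Kit), it was the one with a G-quadruplex motif, 98 to 80 bases before the first of its 2 starts in that table and in capitals below. The bases that precede the gene in GENCODE are printed (GRCm38.p6, chr5:75574737-75574915, plus strand).
Kit: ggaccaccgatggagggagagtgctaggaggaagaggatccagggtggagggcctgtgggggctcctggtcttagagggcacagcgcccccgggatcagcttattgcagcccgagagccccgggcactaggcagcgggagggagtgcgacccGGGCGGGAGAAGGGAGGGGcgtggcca
Such a motif stood in 16.2% of the 27025 windows, and the Kit window held none of the other motifs searched. No entry for Gdf9 and Fgf8 was used.

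Kit did not differ beyond its spread at the growing stage and was lower in CKO at each later stage. GO 2W libraries held 388, 390 and 409 CPM in CKO and 468, 401 and 452 CPM in WT, overlapping, with a change of -0.16 (95% interval -0.40 to 0.09, edgeR adjusted p = 0.435). FGO 3W libraries held 249 and 217 CPM in CKO, against 373 and 364 CPM in WT, a change of -0.66 (SE 0.15, edgeR adjusted p = 0.00193). FGO 4W libraries held 162, 182 and 185 CPM in CKO, against 353, 305 and 297 CPM in WT, a change of -0.86 (SE 0.12, edgeR adjusted p = 5.26e-06). From FGO 3W on, the genotypes did not overlap. Ranges that did not meet were found in 69% of all tested genes at FGO 3W, 46.7% at FGO 4W, 37.5% at MII and 30.3% in zygotes. The FGO 3W call was lost with libraries scaled by their totals (-0.40, edgeR adjusted p = 0.12), with no filter on low counts (-0.58, 0.0572), without the second CKO library (-0.57, 0.0684) and in each limma fit.

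MII oocytes held 532, 474, 483 and 603 CPM of Kit in CKO, against 913, 945 and 1009 CPM in WT, a change of -0.87 (SE 0.11, edgeR adjusted p = 6.82e-07), or 0.548-fold. Zygotes held 346, 361 and 308 CPM in CKO, against 519, 508 and 492 CPM in WT, a change of -0.58 (SE 0.12, edgeR adjusted p = 5.11e-04). The highest CKO library lay under the lowest WT library at both stages. A fit of the zygote libraries alone gave -0.59 and did not call it (edgeR adjusted p = 0.0532). The mean change over the stages was -0.63 (SE 0.06, edgeR adjusted p = 3.65e-10). Leaving out single libraries kept the FGO 4W change between -0.90 and -0.78 and the MII change between -0.91 and -0.81. Set against Gdf9 within each library, Kit FPKM averaged 0.0163 ± 0.0031 of Gdf9 in CKO and 0.0293 ± 0.00251 in WT at FGO 4W (SD, n = 3 each), and 0.0316 ± 0.00232 in CKO (n = 4) and 0.0411 ± 0.00316 in WT (n = 3) at MII, without overlap at either stage. This ratio was not tested either. CPM ranges of single genes did not meet in 46.7% of all tested genes at FGO 4W and 37.5% at MII.

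The Kit change differed among stages (edgeR F test over the 5 stages, adjusted p = 0.00762). The FGO 4W change minus the GO 2W change was -0.70 (SE 0.17, edgeR adjusted p = 0.0111). Both calls were lost with no filter on low counts (edgeR adjusted p = 0.0767 and 0.0742). Kit fell between growing and fully grown oocytes of 4-week-old females in both genotypes, with changes of -1.17 in CKO (SE 0.12, edgeR adjusted p = 1.26e-07) and -0.47 in WT (SE 0.12, 0.0306). The WT call was lost in 4 of the 6 fits that left out a library.

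FGO 4W against GO 2W differs in both stage and age, and FGO 4W against FGO 3W in age alone by the labels. The FGO 3W, MII and zygote groups all came from 3-week-old females. Stage comparisons cannot separate stage or age from any unlabelled batch. Nor can they separate transcript number from polyadenylation, so rises and falls here are of poly(A) RNA levels. For FGO 4W against GO 2W, 3 of the 6 genes were called in CKO (17.1% of all tested genes) and 2 in WT (2.47%). Fgf8 fell in CKO, by 0.99 (SE 0.30, edgeR adjusted p = 0.0202), a call lost in 4 of the 6 fits that left out a library. Oosp1 rose in FGO 4W, by 0.46 in CKO (edgeR adjusted p = 0.0134) and 0.47 in WT (0.0496), calls lost in 3 of 6 such fits in CKO and 5 of 6 in WT. For FGO 4W against FGO 3W, edgeR called 0 of the 6 in CKO (6.89%) and 0 in WT (0.579%). Of the genes in CKO, Fgf8, Oosp1 and Kit had an unadjusted p under 0.05 and DESeq2 called 2 and limma 1, while in WT the unadjusted count was 0 and neither tool called any. The difference in genotype change between FGO 4W and FGO 3W was called for 0 of 6 by each of the 3 tools (2.72% by edgeR), with an unadjusted count of 0. That between FGO 4W and GO 2W was called for 2, Fgf8 and Kit (5.37%), that between MII and FGO 3W for Fgf8 alone (14.7%), and that between zygotes and MII for 3, Gdf9, Bmp15 and Fgf8 (15.7%). The test among all 5 stages called 2, Fgf8 and Kit (30.3%).

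For MII against FGO 3W, 4 genes were called in CKO (50.1%) and 5 in WT (48.3%). Oosp1 rose by 2.05 in CKO (SE 0.15, edgeR adjusted p = 8.35e-12) and 1.81 in WT (SE 0.16, 1.15e-10). Kit rose by 1.17 in CKO (SE 0.13, edgeR adjusted p = 2.32e-08) and 1.38 in WT (SE 0.14, 2.65e-09). Bmp15 rose by 1.0 in CKO (SE 0.19, edgeR adjusted p = 5.20e-05) and 0.81 in WT (SE 0.19, 8.83e-04), and Gdf9 by 0.91 in WT (SE 0.29, 0.0109) but not past the threshold in CKO (0.56, 0.094). The Gdf9 call in WT was lost without either WT FGO 3W library. The median change over all tested genes was -0.24 in CKO and -0.28 in WT on this scale, and -0.91 in CKO and -0.88 in WT with libraries scaled by their totals. On the scale of library totals Oosp1 still rose, by 1.38 in CKO and 1.21 in WT, and Kit by 0.50 in CKO and 0.77 in WT, whereas Bmp15 (0.34 in CKO, 0.21 in WT) and Gdf9 in WT (0.30) were not called. In FPKM, Gdf9 averaged 2452 in MII and 2655 in FGO 3W of CKO, against 3007 in MII and 2445 in FGO 3W of WT.

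For zygotes against MII, 5 genes were called in CKO (22.2%) and 4 in WT (34%). Beside Gdf9, Bmp15, Bmp6 and Fgf8 above, Oosp1 fell by 0.65 in CKO (SE 0.12, edgeR adjusted p = 2.78e-04) and by 0.58 in WT (SE 0.13, 8.30e-04). Kit fell by 0.63 in CKO (SE 0.11, edgeR adjusted p = 1.30e-04) and by 0.92 in WT (SE 0.12, 5.78e-07). With libraries scaled by their totals the WT change of Oosp1 was -0.18 and not called (edgeR adjusted p = 0.363).

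In FPKM the order of the 6 genes was not fixed across stages. In GO 2W the means were 2915 for Gdf9, 1344 for Oosp1, 1027 for Bmp15, 89.7 for Kit, 87.2 for Fgf8 and 24.8 for Bmp6 in CKO, against 2778, 1557, 1392, 88.7, 85.3 and 25.5 for the same genes in WT. In MII the highest was Oosp1, at 3940 in CKO and 4107 in WT, and the lowest Fgf8, at 7.48 in CKO and 2.65 in WT. Within a gene, the 10 groups ordered by CPM showed gaps between neighbours for some genes and not for others. Fgf8 in prophase fell into separate ranges from WT FGO 4W down to CKO FGO 4W, apart from the overlapping GO 2W groups. For Bmp6 neighbouring ranges overlapped all the way down, except between CKO GO 2W, whose lowest library held 53.0 CPM, and WT MII, whose highest held 52.6 CPM.

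Over the 29 libraries, log2 CPM of Bmp15 correlated with Kit at 0.816 and with Oosp1 at 0.777, and Oosp1 with Fgf8 at -0.868 (Pearson r, a description over libraries that share stages and genotypes). Among 9158 other genes with a mean of at least 5 CPM, those most like Gdf9 were Saraf (r = 0.967), Por (0.965) and Il1rap (0.946). Most like Bmp15 were Med1 (0.934), Stx12 (0.934) and Morf4l2 (0.931), and most like Bmp6 Tle5 (0.897), Maco1 (0.895) and Zfp341 (0.856). Most like Fgf8 were Bloc1s2 (0.980), Eif2b4 (0.976) and Ddx11 (0.969). Oosp1 had Erg28 (0.983), Rchy1 (0.983) and Paip1 (0.982), and Kit had Arhgap28 (0.965), Gpcpd1 (0.949) and Pdp1 (0.946).

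The other genes of these pathways were counted in the mean of CKO over WT over the 5 stages, in which 24.4% of all tested genes were called higher and 23.6% lower, with a median change of 0.04. Of 12 tested ligands of the TGF-beta family beside the 6 genes, 5 were called lower and the rest were not called. Tgfb2 stood at -0.43 (edgeR adjusted p = 1.36e-06), Bmp5 at -0.74 (1.97e-06) and Bmp7 at -0.92 (0.00257). Group means of Bmp7 reached only 4.28 CPM at most, and it was called only at FGO 3W and in zygotes. Of 30 tested receptors, SMADs and regulators of the family, 14 were higher and 3 lower, with Tgfbr1, a type I receptor, at 1.32 (edgeR adjusted p = 1.72e-12), Tgfbr3, a co-receptor, at 1.14 (8.17e-10) and Smad5, which carries BMP signals, at 1.76 (2.70e-09). Of 34 genes of proprotein processing and secretion, 8 were higher and 14 lower, among them Ssr2, of the translocon, at 1.59, Tll1, a tolloid protease, at -1.35 and Sec24d, of the vesicle coat COPII, at -0.64. The median change of that list was -0.12.

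Of 23 tested FGF ligands, receptors and feedback genes, 7 were higher and 9 lower in that mean. Spry4, a feedback inhibitor of receptor tyrosine kinase signalling, was at -1.14 (edgeR adjusted p = 7.50e-10), Frs2, an adaptor of FGF receptors, at -0.90 (1.09e-05) and Fgf21 at 3.62 (2.09e-09). Fgf21 was called at the 3 prophase stages, with group means of 2.78 to 12.6 CPM in CKO and 0.0225 to 0.362 CPM in WT, and not at MII (-0.16, edgeR adjusted p = 0.880) or in zygotes (0.94, 0.356). Of 39 genes of KIT ligand and PI3K signalling, 10 were higher and 10 lower. Tsc1, an inhibitor of mTOR signalling, was at 0.91 (edgeR adjusted p = 2.30e-11), Sos2, an exchange factor for RAS, at 1.14 (5.47e-10) and Rictor, a subunit of mTOR complex 2, at -0.63 (1.66e-09). Of 7 tested genes of the Oosp family and egg coat, 3 were lower and the rest not called: Astl at -1.31 (edgeR adjusted p = 3.59e-11), Oosp3 at -0.52 (8.82e-07) and Zp3 at -0.50 (0.00289). The stages differed, with 6 of the 7 lower at FGO 4W (14.8% of all tested genes), and 3 higher (18.2%) and 2 lower (14.7%) at MII. Zp3 was called only at FGO 4W, at -1.92, and stood at 0.41 at MII and 0.28 in zygotes. Of 11 oocyte transcription regulators 3 were higher and 3 lower, with Lhx8 at -1.07 (edgeR adjusted p = 2.26e-12), Taf4b at 0.95 (2.36e-06) and Sohlh1 at 6.88 (8.48e-15), the last with group means of 9.96 to 24.0 CPM in CKO and 0.0254 to 0.424 CPM in WT. The median change was -0.13 over the genes of the Oosp family and egg coat and 0.08 over the transcription regulators.

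Of 12 oocyte markers 2 were higher and 5 lower in the same mean, with a median change of -0.10. Examples were Ddx4 at 1.56 (edgeR adjusted p = 8.74e-08), Ooep at -0.51 (4.49e-07) and Dppa3 at -0.41 (2.01e-06). Ooep was called lower at 4 stages, down to -1.61 in zygotes (edgeR adjusted p = 9.70e-09), and higher at MII, at 1.01 (2.68e-06). Ddx4 was called higher at each stage but MII, and Dppa3 lower only at MII and in zygotes. Of 18 tested granulosa and cumulus markers 3 were higher and 2 lower, with Fshr at 3.75 (edgeR adjusted p = 1.60e-07), Cyp11a1 at -1.49 (2.09e-06) and Ptgs2 at -2.12 (3.48e-04). Group means of Cyp11a1 and Ptgs2 reached only 3.45 and 3.18 CPM at most. Ptgs2 was called only at FGO 4W, Cyp11a1 only at FGO 4W and in zygotes, and Fshr at each stage but zygotes. Fshr reached 32.1 CPM at most, and its part, like that of the other markers, in the changes of the 6 genes was not tested.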

How the data were processed

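Libraries of 10 pooled cells were made with Smart-seq2 and sequenced, per the labels' protocols. Per the submitters' processing notes, Trim Galore, FastQC, HISAT2, SAMtools and featureCounts were used with mm10; their versions, the annotation and the strand setting are not given in the sources used here. The deposited tables hold read counts per gene and FPKM made by the authors. The deposited FPKM equalled the count divided by gene length and library total, to a largest relative deviation of 4.4e-16 over 8111 genes, and even numbers made up 81% of the counts between 1 and 20, as counting both ends of each read pair would give. The labels name ERCC spike-ins, but the table rows used here hold none.

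Counts were scaled by TMM and filtered with edgeR's filterByExpr (count minimum 10). The 10 groups were fitted in 1 model with edgeR's quasi-likelihood test (trended dispersion 0.0337 to 1.17, 19 residual and 8.308 prior degrees of freedom), with Benjamini-Hochberg adjustment over all tested genes and a threshold of 0.05. Contrasts were CKO over WT at each stage and in their mean, stages within a genotype, and differences between changes. Tools were R 4.3.3, edgeR 4.0.16, limma 3.58.1, DESeq2 1.42.0, Python 3.11.15, pandas 2.3.3, NumPy 2.4.6 and Matplotlib 3.10.9. No 2 libraries of a group held identical counts. Since no label ties libraries to separate animals, p-values measure the spread between these libraries.

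The 6 genes, the gene lists and the tests were chosen with earlier results of these data known. The text names the 6 genes, Dhx36, the 3 genes most correlated with each of the 6 in log2 CPM (prior count 2, mean of at least 5 CPM, predicted genes left out), and, per list, up to 3 called genes, those of lowest adjusted p in the mean of 5 stages. Alternatives were RLE size factors, no filter, 1 common dispersion, DESeq2, limma on log2(FPKM + 1) or log2(FPKM + 0.1), limma without a filter, fits of single stages, a replicate block and leaving out each library. Scaling by library totals and leaving out the 3 libraries with over 8% of counts on Rn18s-rs5 were added after seeing the data. Promoter windows came from RefSeq and transcripts from GENCODE M21.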

Additional observations from a re-analysis of the deposited data

Results flagged for a closer look

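The genotype change differed between stages in 6 comparisons of the 6 genes, by edgeR's test of the difference itself. For Gdf9 the change in zygotes exceeded that at MII by 1.02 on the log2 scale (adjusted p = 0.0438), with all 4 CKO MII libraries below all 3 WT MII libraries and overlapping ranges in zygotes, and it was 0.29 without the second CKO zygote library, 0.71 with libraries scaled by their totals and 0.52 in limma, none of them called. For Bmp15 the zygote change minus the MII change was -0.86 (edgeR adjusted p = 0.0108), with all 3 CKO zygote libraries below all 3 WT zygote libraries. Ranges that did not meet were found in 37.5% of all tested genes at MII and 30.3% in zygotes.

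For Fgf8 the FGO 4W change minus the GO 2W change was -1.44 (edgeR adjusted p = 0.0392), the MII change minus the FGO 3W change 1.99 (0.00411) and the zygote change minus the MII change -1.78 (0.00372). The first of these calls was lost in each of the 12 fits that left out a library. All 4 CKO MII libraries were above all 3 WT libraries, and all 3 CKO FGO 4W libraries below all 3 WT libraries. Ranges that did not meet were found in 37.5% of all tested genes at MII and 46.7% at FGO 4W. For Kit the FGO 4W change minus the GO 2W change was -0.70 (edgeR adjusted p = 0.0111), with 3 of 3 CKO libraries below the WT libraries at FGO 4W and overlapping ranges at GO 2W. This Kit call was lost with no filter on low counts.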

How the results depend on the processing

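Counts of the 6 genes called moved with the processing. The limma fits used FPKM, which divide by library totals, so they share that scaling with the setting of library totals. Of 2 called at GO 2W, 1 was called with no filter and with the replicate block, and 0 with library totals and in each limma fit. Of 2 at FGO 3W, 0 were called with no filter, library totals and each limma fit, 1 with the block, and 4 without the libraries rich in ribosomal RNA and in the fit of that stage alone. Of 4 at FGO 4W, 2 were called with library totals, limma on log2(FPKM + 0.1) and limma with no filter. Of 2 at MII, 4 were called with the block. Of 2 in zygotes, 5 were called without the libraries rich in ribosomal RNA, 1 in the fit of zygotes alone and 4 with limma at either pseudocount. In the mean, 3 became 5 without those libraries. For FGO 4W over FGO 3W in CKO, 0 became 1 with no filter and with limma, and 2 without those libraries and with DESeq2. For FGO 4W over GO 2W in WT, 2 became 0 with no filter and library totals and 1 with limma. The difference in change between FGO 4W and GO 2W was called for 1 rather than 2 with RLE factors and with no filter. Without the libraries rich in ribosomal RNA, that between FGO 4W and FGO 3W was called for 1 rather than 0, and the test among stages for 4 rather than 2. The cause was not tested.

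Leaving out single libraries gave 0 to 1 called at GO 2W, 0 to 2 at FGO 3W, 3 to 4 at FGO 4W, 2 to 3 at MII, 2 to 4 in zygotes, 3 to 4 in the mean and 2 to 3 among stages. It gave 1 to 2 for FGO 4W over GO 2W in CKO and 0 to 2 in WT, 4 to 5 for MII over FGO 3W in either genotype, and 4 to 6 for zygotes over MII in CKO. It gave 1 and 2 to 3 for the differences FGO 4W minus GO 2W and zygote minus MII. 

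Changes that turned direction were not called in either setting. With library totals these were Fgf8, Gdf9 and Kit at GO 2W (0.032, 0.069 and 0.016), Gdf9 at FGO 3W (0.12), Bmp6 in zygotes (-0.020), and Bmp6 and Gdf9 in the mean (0.037 and 0.10). Limma, with or without a filter, gave 0.034 for Fgf8, 0.070 for Gdf9 and 0.018 for Kit at GO 2W, and 0.12 for Gdf9 at FGO 3W. It gave -0.066 for Bmp6 in zygotes, and 0.021 and 0.057 for Bmp6 and Gdf9 in the mean. With log2(FPKM + 0.1) Fgf8 at GO 2W was 0.035, Bmp6 in zygotes -0.071 and Bmp6 in the mean 0.019. Without the libraries rich in ribosomal RNA, Bmp6 in zygotes was -0.44 and Gdf9 in the mean 0.036. Leaving out single libraries moved Bmp6 from -0.31 to 0.023 at GO 2W, -0.40 to 0.070 at MII, -0.44 to 0.42 in zygotes and -0.17 to 0.0066 in the mean. It moved Gdf9 from -0.16 to 0.20 at FGO 4W, -0.19 to 0.74 in zygotes and -0.14 to 0.042 in the mean. Bmp15 at GO 2W lost its call without WT library 1 or 3 or CKO library 1 or 3, and with library totals (-0.44, edgeR adjusted p = 0.12), as at FGO 4W (-0.46, 0.0642). Of 667 values under other settings 550 kept their direction and side of the threshold, as did 539 of 618 without single libraries.

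Same-numbered libraries did not deviate together (r of -0.0797 to 0.0392), so the numbers are not taken as pairs. With the replicate block, Gdf9 and Bmp15 at MII (-0.55 and -0.52) and Fgf8 in the mean (-0.33) were called, and Oosp1 lost its calls at GO 2W, FGO 3W and FGO 4W (-0.38, -0.49 and -0.39); no other of these calls changed. FGO 3W rests on 2 libraries a genotype, and the smallest count of the 6 genes was 135 reads, for Fgf8 at MII.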
